A study of Mus musculus with 5 samples.

Results

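Wide stretches of open chromatin that overlapped neither HEB nor TCF1 were examined in double positive (DP) thymocytes, the CD4 and CD8 expressing precursors of mature T cells. They were chosen by 2 measured values from a list of DNase I hypersensitive regions: a width of at least 1000 bp, and no base pair shared with a region of the HEB list or of the TCF1 list. Of 48320 DNaseI regions, 3206 (6.64%) were this wide, and 2047 of those, 63.8% of the wide regions and 4.24% of the whole list, carried neither factor. The other 1159 wide regions carried HEB alone (269 regions), TCF1 alone (560 regions) or both (330 regions) and served for comparison. Over all widths, 91.8% of DNaseI regions overlapped neither factor. These counts, the widths and the DNaseI scores are therefore given as a description and not as a test.

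The thymocytes came from C57/BL6 mice aged 4 to 6 weeks, and the labels give no genotype change and no treatment. DNase I digestion, HEB chromatin immunoprecipitation and TCF1 chromatin immunoprecipitation had 1 sample each. The H3K9me3 and H3K27ac samples of the series were not analysed here. The labels do not say how the cells were purified or whether mice were pooled, and the identity of the cells was not checked against marker genes, because regions were not assigned to genes.

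DNase I cuts DNA where nucleosomes are displaced, so a hypersensitive region marks a promoter, an enhancer, an insulator or another site held open by bound proteins. HEB, the E protein encoded by Tcf12, binds E-box sequences as a dimer with itself or with another E protein, and TCF1, the HMG-box protein encoded by Tcf7, bends DNA in its minor groove and is an effector of Wnt signalling. Both act at enhancers of T cell genes in the thymus. Many other proteins hold chromatin open in these cells, among them ETS, RUNX and Ikaros family factors and CTCF, and none of these was measured here.

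The wide factor-free regions covered 2.74 Mb, or 12.6% of all base pairs in DNaseI regions, whereas the wide regions with a factor covered 1.79 Mb, or 8.23%. Most factor-free regions were near the lower width limit. Their median width was 1219 bp (quartiles 1085 and 1456 bp), and 1137 of the 2047 were under 1250 bp. Wide regions with a factor had a median width of 1342 bp (1137 and 1726 bp), and those with both factors 1587 bp (1243 and 2115 bp). At the width limit itself, 74 of 91 regions from 1000 to 1009 bp carried neither factor, with a median DNaseI score of 58 (range 37 to 136). Just outside it, 72 of 95 regions from 990 to 999 bp carried neither, with a median score of 56.5 (37 to 177).

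The share of DNaseI regions with neither factor was lower in each wider class. It was 98.6% (95% Wilson interval 98.4 to 98.8%) at 201 bp or less, 78.0% (76.6 to 79.4%) at 750 to 999 bp and 70.7% (68.4 to 72.8%) at 1000 to 1249 bp. Above that it was 64.5% (60.9 to 67.9%) at 1250 to 1499 bp, 55.9% (51.8 to 59.9%) at 1500 to 1999 bp and 44.5% (38.6 to 50.7%) at 2000 to 2999 bp. Of the 49 regions of 3000 bp or more, 13 carried neither, or 26.5% (16.2 to 40.3%). Regions with both factors were more frequent in the wider classes, with 5.22% (4.24 to 6.42%) of regions at 1000 to 1249 bp and 53.1% (39.4 to 66.3%) at 3000 bp or more. The share with TCF1 alone was between 12.2% and 19.7% in every class of 1000 bp or more, and the share with HEB alone between 7.52% and 10.8%. All intervals cover counting error alone, since regions of 1 list are not replicates of a cell population, and a wider region offers more sequence in which a factor region can fall. Sequencing depth of the lists is unknown, so a factor bound below the calling threshold cannot be told apart from an unbound region.

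**Figure D1:**
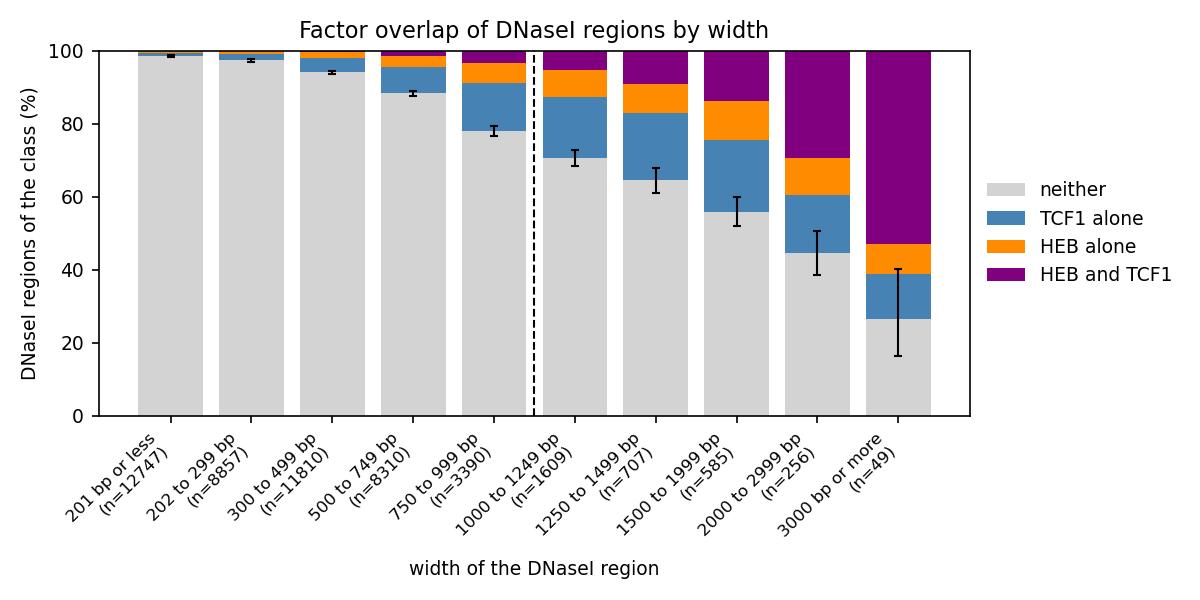
Share of DNaseI regions (vertical axis, %) that overlapped neither factor, TCF1 alone, HEB alone or both, by width class of the region (horizontal axis, number of regions in brackets); error bars are 95% Wilson intervals of the share with neither factor, and the dashed line marks 1000 bp. The share with neither factor goes from 98.6% in the narrowest class to 26.5% in the widest.

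The wide factor-free regions were strongly scored DNaseI regions, but less so than wide regions with a factor. The score is the authors' own whole number per region, has no stated unit and rises with the width, so it is given within width classes and as a description. The factor-free regions had a median score of 80 (quartiles 62 and 104, range 32 to 521), against 16 for all DNaseI regions and 108 (81 and 147) for wide regions with a factor. At 1000 to 1249 bp the median scores were 67 in factor-free regions, 73 in HEB-alone regions, 85 in TCF1-alone regions and 94.5 in regions with both factors. At 1500 to 1999 bp they were 104, 122, 128 and 152 in the same order. At 1250 to 1499 bp factor-free and HEB-alone regions had the same median of 84, and TCF1-alone regions had 100. At 2000 to 2999 bp the medians were 147 in factor-free, 158 in HEB-alone and 176 in TCF1-alone regions and 195 with both. The order differed at 3000 bp or more, where the 13 factor-free regions had a median of 259, the 4 HEB-alone regions 240.5, the 6 TCF1-alone regions 441.5 and the 26 with both 309.5.

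Over all widths together, score divided by width also had the factor-free regions lowest. The median score per kb of region was 61.2 (95% interval of the median 60.4 to 62.1) in factor-free regions, 65.8 (63.7 to 69.1) with HEB alone, 76.2 (73.9 to 78.1) with TCF1 alone and 83.4 (81.7 to 86.4) with both. Among DNaseI regions under 1000 bp without a factor it was 46.9. The groups overlapped broadly: 525 of the 2047 factor-free regions, or 25.6% (23.8 to 27.6%), scored above the median of the factor-carrying regions of their own width class. The wide factor-free regions made up 381 of the 1000 highest-scoring DNaseI regions, 27 of the highest 100 and 1 of the highest 10. Of those 1000 regions 890 were wide, as were all of the highest 100. Over the whole list, 2047 of the 3206 wide regions were factor-free. Ranked by width, they made up 28 of the widest 100 and 1 of the widest 10.

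**Figure D2:**
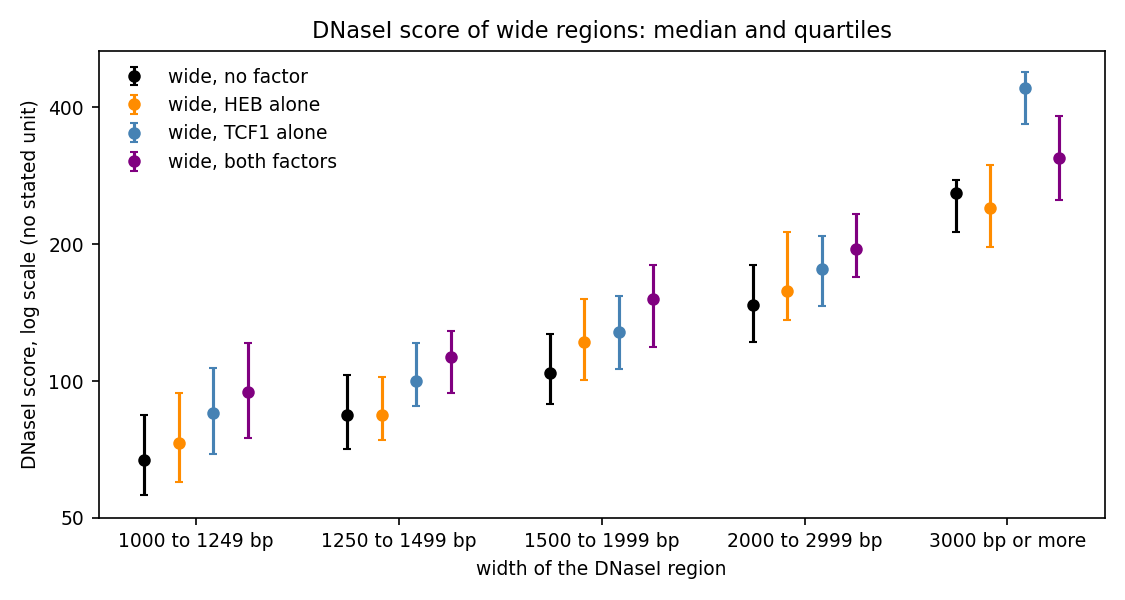
Median DNaseI score (vertical axis, log scale, no stated unit) with quartiles as bars, by width class (horizontal axis), for factor-free, HEB-alone and TCF1-alone wide regions and those with both. Medians of factor-free regions go from 67 in the narrowest class to 259 in the widest, where HEB alone has 4 regions and TCF1 alone 6.

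The widest factor-free region, chr15:74784490-74791267 (mm9), was 6778 bp wide with a score of 521. It was the second widest of all DNaseI regions and the fourth by score, and it also led the factor-free regions by score. The nearest TCF1 region lay 39.3 kb away and the nearest HEB region 47.6 kb away. A second of the 10 widest, chr15:74760834-74764336 (3503 bp, score 277), lay in the same 100 kb, 15.6 kb from TCF1 and 24.0 kb from HEB. Other open regions were close by, with 5 other DNaseI regions within 10 kb of the first and 7 within 10 kb of the second.

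The rest of the 10 widest were between 3165 and 4251 bp. Some of them lay close to a factor region without touching one. The region chr3:95476006-95480256 (4251 bp, score 268) was 3.22 kb from HEB and 5.78 kb from TCF1, chr17:47730748-47734232 (3485 bp, score 220) was 3.69 kb from TCF1, and chr15:97578457-97581675 (3219 bp, score 213) was 2.70 kb from HEB. Also among the 10 were chr19:44367111-44370973 (3863 bp, score 259) and chr16:23982189-23985419 (3231 bp, score 251), at 11.7 and 5.91 kb from TCF1 and 207 and 197 kb from HEB. The region chr6:41491480-41494651 (3172 bp, score 302) had both at similar distances, HEB at 9.68 kb and TCF1 at 9.74 kb. Others lay far from both: chr14:51707989-51711205 (3217 bp, score 348) was 195 kb from HEB and 280 kb from TCF1, and chr11:69221936-69225100 (3165 bp, score 262) was 149 kb and 169 kb away, with 10 other DNaseI regions within 10 kb. For comparison, 4 of the 5 widest regions with a factor carried 1 HEB and 1 TCF1 region each and the other carried 1 TCF1 region. Their widths were 4908 to 7846 bp.

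High score and great width were partly separate, since only 3 regions were among both the 10 widest and the 10 highest-scoring factor-free regions. The steepest score for its width among these was at chr10:80782693-80783986, which was 1294 bp wide with a score of 284, or 219 per kb. It was followed by chr10:79447139-79449033 (1895 bp, score 411, 217 per kb), the second by score. These values are above 3 times the factor-free median of 61.2 per kb. The other regions by score were chr3:96303363-96306167 (375), chr11:97848449-97850920 (330), chr17:36052467-36055071 (328), chr6:124778093-124780540 (322) and chr6:128788132-128790272 (316). Of these, chr17:36052467-36055071 lay 0.875 kb from a TCF1 region, and chr6:124778093-124780540 had no other DNaseI region within 10 kb.

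Factor regions were counted outside the wide regions next, a quantity that the choice of regions did not use. Most factor-free regions were not near one, and the same held for wide regions with a factor and for all DNaseI regions. The median gap to the nearest HEB or TCF1 region was 31.6 kb (quartiles 9.01 and 86.8 kb), with HEB nearer for 971 regions and TCF1 nearer for 1075. This median was 37.9 kb for all DNaseI regions and 20.9 kb for wide regions with a factor, counted outside them. A factor region lay within 10 kb of 552 of the 2047, or 26.97% (25.1 to 28.9%), against 23.3% of all DNaseI regions. For wide regions that carried a factor, another factor region outside them lay within 10 kb in 402 of 1159 cases, or 34.7% (32.0 to 37.5%). Weighted to the width classes of the factor-free regions, this share was 32.3%. Gaps of under 500 bp were found for 1.17% of factor-free regions, so few of them were near misses of the overlap rule. The share was similar for all DNaseI regions, at 1.32%, and 1.64% for wide regions with a factor.

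Around the factor-free regions both factors were denser than over the whole span of the chromosomes, and less dense at 50 to 100 kb than at 1 to 2 kb. At gaps of 1 to 2 kb there were 12.9 HEB and 11.7 TCF1 regions per Mb of flank, and at 50 to 100 kb 4.95 and 5.52. The means over the span were 1.92 and 1.38 per Mb. The corresponding densities around wide regions with a factor were 17.7 for each factor at 1 to 2 kb, and 5.66 and 6.01 at 50 to 100 kb. The same fall was present around factor-free regions under 1000 bp. There HEB and TCF1 had 10.1 and 13.6 per Mb at 1 to 2 kb, and 4.41 and 4.54 at 50 to 100 kb. DNaseI regions at 1 to 2 kb numbered 219 per Mb around wide factor-free regions, 270 per Mb around wide regions with a factor and 164 per Mb around narrower factor-free regions.

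**Figure D3:**
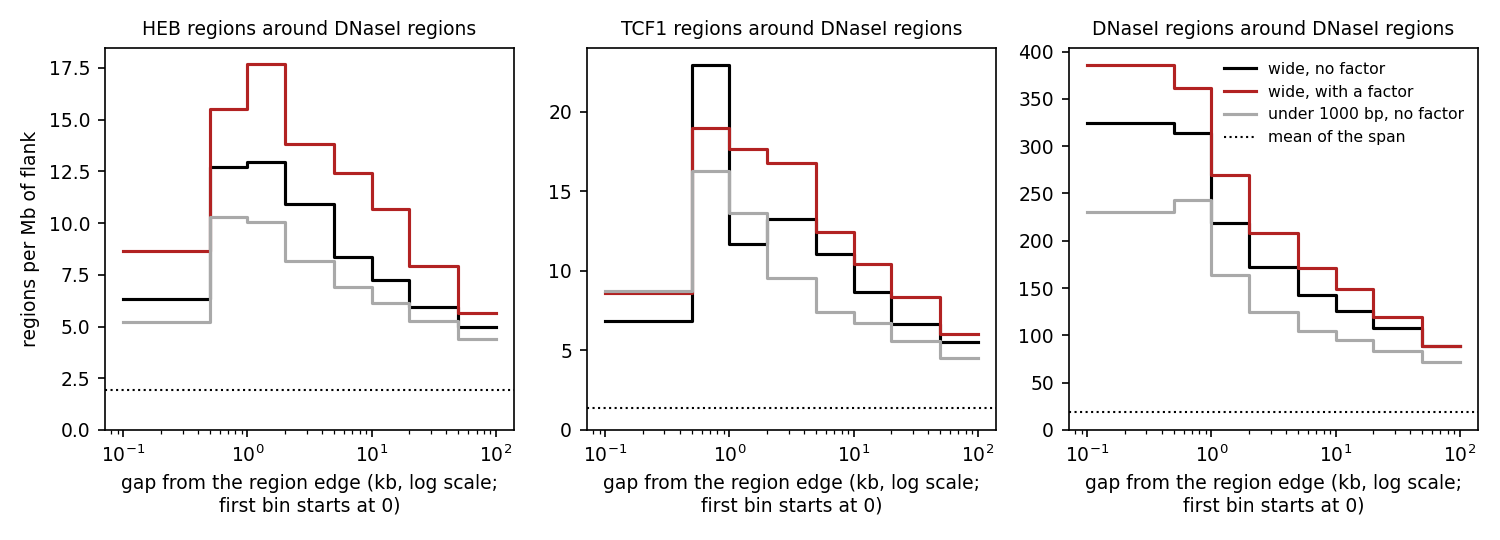
Number of HEB, TCF1 and DNaseI regions per Mb of flanking sequence (vertical axes) by gap from the edge of a DNaseI region (horizontal axes, kb, log scale), around wide regions without a factor, wide regions with a factor and factor-free regions under 1000 bp; dotted lines are the mean over the chromosome span. HEB density at 1 to 2 kb is 12.9 per Mb around wide factor-free regions and 17.7 around wide regions with a factor.

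The factor regions that lay within 10 kb of a factor-free region were mostly in other DNaseI regions. Of the nearest HEB regions, 286 different ones, 82.5% overlapped a DNaseI region, against 34.5% of the whole HEB list, and their median HEB score was 15, against 11 for the list. Of the nearest TCF1 regions, 340 different ones, 95.6% overlapped a DNaseI region, against 84.9% of the list, and their median TCF1 score was 11, the same as the list's. Only factor regions next to an open region were counted here, whereas the list holds those of any place. No such count was made around other DNaseI regions. Whether these shares are particular to the wide factor-free regions was therefore not tested.

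The open regions near a wide factor-free region carried factors about as often as those near a wide factor-carrying one. Counted with repeats, 676 of 7249 DNaseI neighbours within 10 kb of factor-free regions carried a factor, or 9.33% (8.68 to 10.0%), against 471 of 4925 neighbours of wide regions with a factor, or 9.56% (8.77 to 10.4%). For neighbours that were themselves 1000 bp or wider these shares were 41.4% (38.1 to 44.7%) and 40.7% (36.8 to 44.7%), and for neighbours of 500 to 999 bp both were 13.5%. Over the whole DNaseI list a factor was carried by 8.25% of regions, by 36.2% of those of 1000 bp or more and by 14.7% of those of 500 to 999 bp. Neighbours of factor-carrying regions under 1000 bp carried a factor in 11.0% (10.3 to 11.7%) of cases, and in 21.5% (19.6 to 23.6%) where the neighbour was 500 to 999 bp wide. Of the factor-free regions, 1755, or 85.7% (84.1 to 87.2%), had a next DNaseI region without a factor on either side. This share was 83.0% (80.7 to 85.1%) for wide regions with a factor and 84.5% for factor-free regions under 1000 bp.

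Open neighbours were common. Another DNaseI region lay within 10 kb of 1716 factor-free regions, or 83.8% (82.2 to 85.4%), against 78.7% of all DNaseI regions and 89.5% (87.6 to 91.1%) of wide regions with a factor. The median gap to the nearest was 1.01 kb, and the smallest gap in the list was 199 bp. A factor-free region had on average 3.54 DNaseI regions within 10 kb, and wide regions with a factor had 4.25. Weighted to the width classes of the factor-free regions, wide regions with a factor had 3.97, and 87.9% of them had a DNaseI region within 10 kb. Within the factor-free regions these numbers went with the width: the mean was 3.20 at 1000 to 1249 bp, 4.12 at 1500 to 1999 bp and 6.00 among the 13 regions of 3000 bp or more. The share with a factor region within 10 kb went the same way, from 25.2% (22.7 to 27.8%) to 46.2% (23.2 to 70.9%). By score it did not rise: it was 29.0% (25.3 to 33.1%) in the lowest score quartile and 24.4% (20.8 to 28.3%) in the highest, although the highest-scoring regions were also the wider ones.

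Split by the factor carried, the values of the factor-free regions were close to those of regions with TCF1 alone for open neighbours and for factor regions of either kind. Another DNaseI region within 10 kb was found for 83.8% of factor-free regions, 84.5% (81.2 to 87.2%) of those with TCF1 alone, 94.8% (91.4 to 96.9%) of those with HEB alone and 93.6% (90.5 to 95.8%) of those with both. The difference from factor-free regions was 0.634 percentage points for TCF1 alone (95% interval -2.94 to 3.86), 11.0 points for HEB alone (7.29 to 13.6) and 9.81 points for both (6.29 to 12.5). A factor region outside the wide region lay within 10 kb of 26.1% (22.6 to 29.9%) with TCF1 alone, 41.6% (35.9 to 47.6%) with HEB alone and 43.6% (38.4 to 49.0%) with both, against 26.97% of factor-free regions. These differences were -0.895 points (-4.88 to 3.34), 14.7 points (8.61 to 20.9) and 16.7 points (11.1 to 22.4). Counted by factor, HEB within 10 kb was found for 16.2% without a factor, 14.1% with TCF1 alone, 30.5% with HEB alone and 30.3% with both. For TCF1 the HEB-alone regions lay in between, with 24.9% (20.1 to 30.4%), against 19.6% without a factor, 19.6% with TCF1 alone and 30.0% with both, and 22.9% once weighted to the width classes of the factor-free regions. The split was chosen after the values were seen, it has no test over samples, and regions close together share neighbours, so the intervals are too narrow.

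The split was also present at equal width classes. Weighted to the width classes of the factor-free regions, the shares with another DNaseI region within 10 kb were 83.7% with TCF1 alone, 94.7% with HEB alone and 90.9% with both. Mean numbers of DNaseI regions within 10 kb, weighted likewise, were 3.34 with TCF1 alone, 4.87 with HEB alone and 4.42 with both, against 3.54 without a factor. For another wide region within 10 kb the weighted shares were 26.0%, 39.5% and 34.6%, against 28.2%. By score per kb the order was another one, with HEB alone (65.8) next to the factor-free regions (61.2) and TCF1 alone (76.2) further away.

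**Figure D4:**
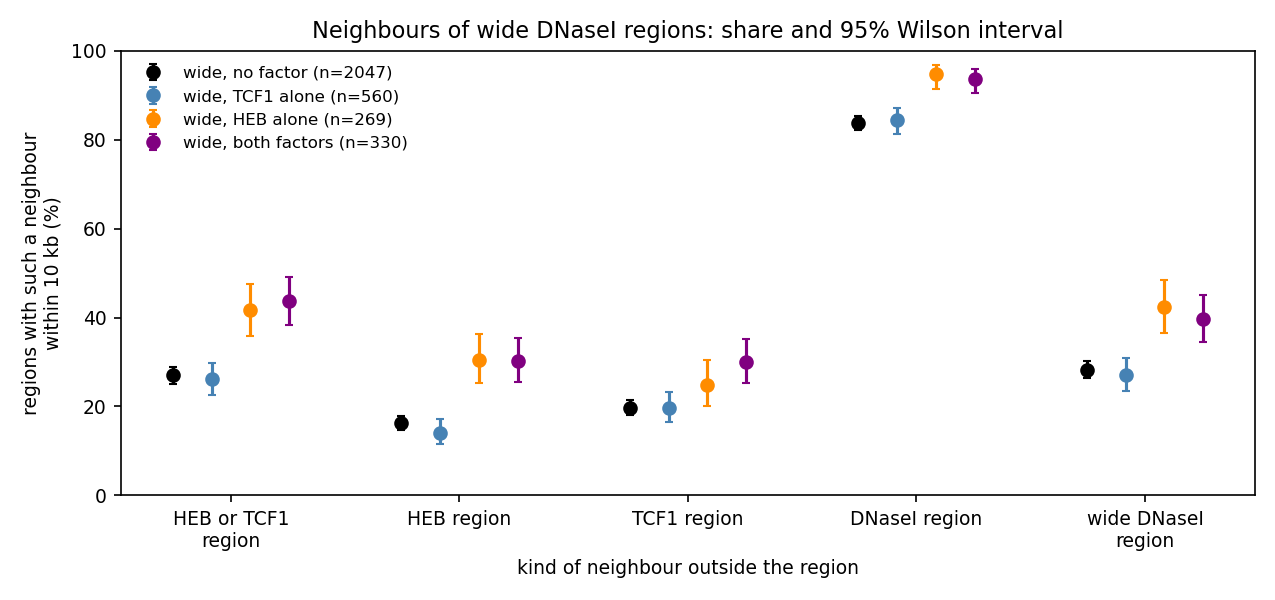
Share of wide DNaseI regions (vertical axis, %) that had a neighbour of the named kind outside them within 10 kb (horizontal axis), for regions without a factor, with TCF1 alone, with HEB alone and with both; bars are 95% Wilson intervals. Factor-free and TCF1-alone regions lie at 83.8% and 84.5% for DNaseI neighbours, and HEB-alone regions and those with both at 94.8% and 93.6%.

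Wide factor-free regions were found on every autosome and on X. The share of an autosome's wide regions that lacked both factors ran from 55.7% (45.8 to 65.2%) on chromosome 13 to 70.1% (59.2 to 79.2%) on chromosome 14, intervals that overlap. As a share of all DNaseI regions of the chromosome they ran from 2.98% on chromosome 13 to 6.16% on chromosome 11, which held 282 of them. Their median width per autosome was 1135 to 1274 bp and their median score 72 to 86.5. On X, 15 of 17 wide regions lacked both factors, or 88.2% (65.7 to 96.7%), against 63.7% (62.0 to 65.4%) on autosomes. These 15 X regions were 1003 to 1574 bp wide with scores of 41 to 159, and the factor region nearest to any of them was 10.9 kb away. The shares on X and on autosomes were not taken at equal widths. Over the whole list, the share with neither factor was 70.7% at 1000 to 1249 bp. Of the 15, 11 had no other DNaseI region within 10 kb, against 16.2% of all wide factor-free regions and 21.3% of all DNaseI regions. DNaseI regions of any width were few on X, with 409, against 1254 on chromosome 18, the autosome with the fewest. How many of those 409 had no other DNaseI region within 10 kb was not counted.

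The regions farthest from a factor lay at unlike distances from other DNaseI regions. First came chrX:133275574-133276599 (1026 bp, score 82), 2130 kb from HEB and 6192 kb from TCF1. It was followed by chr2:142728171-142729252 (1082 bp, score 66) at 1899 kb from the nearest factor region, chr11:29447307-29448576 (1270 bp, score 122) at 1593 kb, chr6:11856847-11858086 (1240 bp, score 94) at 1504 kb and chr9:35018213-35019363 (1151 bp, score 63) at 1430 kb. Only the chromosome 2 region had other DNaseI regions within 10 kb, 2 of them, with the nearest at 0.498 kb. The nearest DNaseI region lay just past that distance for chromosome 9, at 10.3 kb. It lay at 20.9 kb for chromosome 11, 32.4 kb for X and 217 kb for chromosome 6. At the other end, chr15:77635648-77636654 (1007 bp, score 55) stopped 14 bp short of a HEB region and chr7:30064652-30066246 (1595 bp, score 72) 49 bp short. Next were chr10:4521677-4522771 (1095 bp, score 99) at 97 bp from TCF1, and chr4:47302861-47303908 (1048 bp, score 39) and chr1:36365153-36366253 (1101 bp, score 47) at 124 and 141 bp from HEB.

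Some wide factor-free regions lay close to each other, and such a region was no more frequent near them than near wide regions with a factor. Another wide factor-free region lay within 10 kb of 19.1% of them, and a wide factor-free region lay within 10 kb of 24.0% of wide regions with a factor and 12.5% of all DNaseI regions. On a fixed grid of 100 kb, 1534 windows held at least 1 of them, 1171 held exactly 1 and 12 held 5 or more. Of the 1534 windows, 688 held no HEB or TCF1 region at all. These windows held 40.7% (38.6 to 42.8%) of the wide factor-free regions, and windows without a factor region held 45.1% (44.6 to 45.6%) of factor-free regions under 1000 bp. The most, 7, were in a window of chromosome 4 (135600001 to 135700000), with widths of 1008 to 2178 bp, beside 2 wide regions with a factor, 1 HEB and 3 TCF1 regions. In the window from 52000001 to 52100000 of chromosome 11, 6 factor-free regions of 1228 to 2779 bp (scores 89 to 164) lay around a single wide region with a factor. That region, chr11:52088379-52096224, was the widest and highest-scoring DNaseI region of all (7846 bp, score 871).

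The next windows had the same makeup, with 1 wide region with a factor among several without. They were 88900001 to 89000000 of chromosome 11, with 6 factor-free wide regions among 25 DNaseI regions, and 74700001 to 74800000 of chromosome 15, with 6 among 33, including the widest factor-free region. The window from 121000001 to 121100000 of chromosome 5 held 5 among 22, with 1 HEB and no TCF1 region. It shared that number with 7 other windows and precedes them by position. One of the tied windows, 68900001 to 69000000 of chromosome 11, held 5 factor-free wide regions (1073 to 1541 bp, scores 73 to 202) and neither a HEB nor a TCF1 region. It is named for that reason, after its values were seen.

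**Figure D5:**
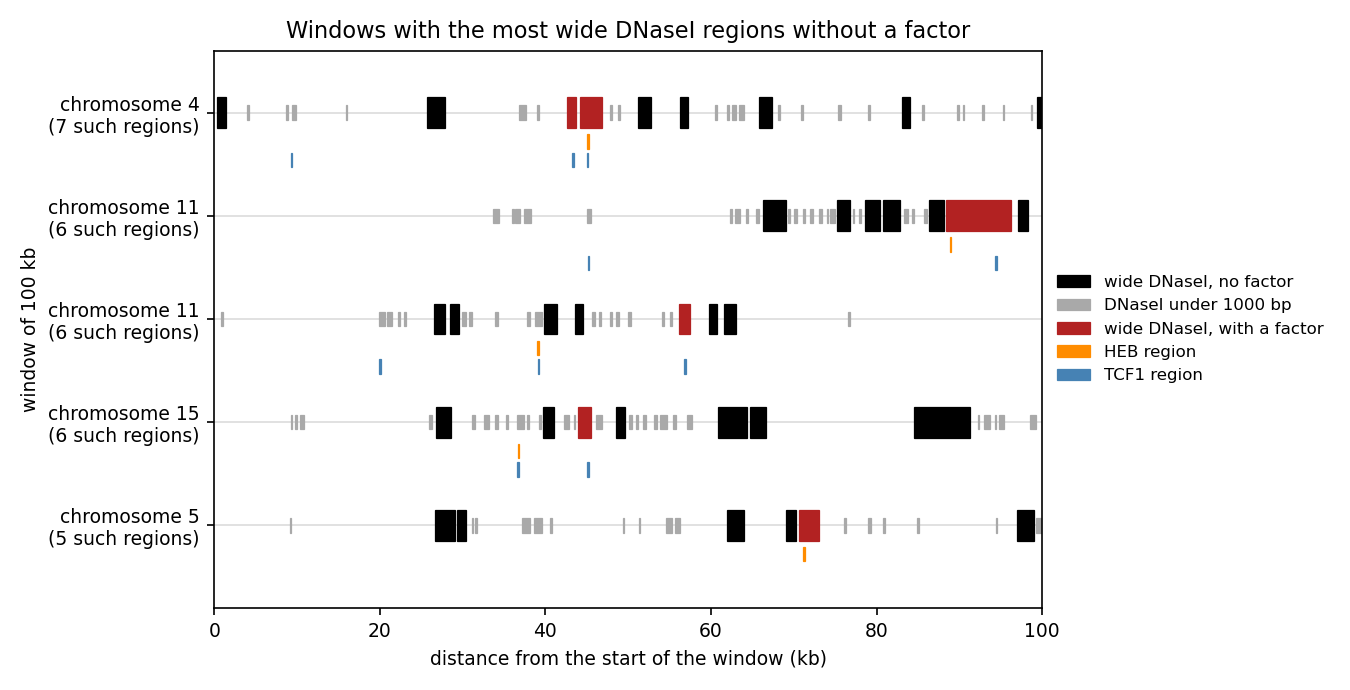
DNaseI, HEB and TCF1 regions (blocks, to scale) along the 5 windows of 100 kb with the most wide factor-free regions; the horizontal axis is the distance from the window's start in kb. Each window holds 5 to 7 wide factor-free regions (dark blocks) and 1 or 2 wide regions with a factor (red blocks).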

How the data were processed

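The region lists deposited by the authors for DNaseI, HEB and TCF1 (1 sample each) were used; each gives positions and, per region, a whole-number score deposited by the authors without a stated unit. The submitters' processing notes name HOMER 6.1 and mm9 without saying what HOMER did; for the aligner, thresholds, control libraries and depth nothing was found (not given in the sources used here). Positions are mm9, counted from 1. The gene and promoter tables at hand are of GRCm38.p6, so no region was assigned to a gene or sequence, and the planned sequence and annotation description was not run. The regions and measures were chosen with earlier results of these data known. Overlap meant at least 1 bp, and a gap ran from edge to edge to the nearest region outside, regions at under the stated distance counting as within it. Windows were assigned by region midpoint. Intervals are 95% Wilson for shares, Newcombe for differences of shares, and order-statistic for medians. With 1 sample per assay no test over samples was possible and no p-value is given. Regions named: the 10 widest and 10 highest-scoring factor-free regions, the 5 farthest from and nearest to a factor region, the 5 windows with most of them, and the 5 widest regions with a factor. Overlap and distance functions were tested on simulated data. Python 3.11.15, numpy 2.4.6, pandas 2.3.3, scipy 1.17.1 and matplotlib 3.10.9 were used.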

Additional observations from a re-analysis of the deposited data

How the results depend on the processing

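Each assay had 1 sample, so no sample could be left out. No paired analysis was possible because no assay had a second sample. Depth is unknown and limits every statement that a factor was missing. The numbers depended on the width limit and on the score of the factor regions. Limits of 800, 1500 and 2000 bp gave 3957, 454 and 127 factor-free regions. Their median scores were 64, 116 and 155, against 91, 155 and 197 with a factor. A factor region within 10 kb was then found for 31.9% (1500 bp) and 37.8% (2000 bp) of factor-free regions and 42.7% and 48.9% of those with a factor. Another DNaseI region was found for 86.3% and 91.3% against 94.3% and 99.4%, and for 87.2% of regions with a factor at 800 bp. With factor regions above the median score of their list, 2484 wide regions were factor-free and 722 carried a factor, against 2047 and 1159 with all factor regions. Median scores were then 83 without and 116 with a factor. A factor region lay within 10 kb of 15.8% and 27.8%, and another DNaseI region within 10 kb of 92.1% of those with a factor. Within 5 kb the factor shares were 17.1% and 22.5% and the DNaseI shares 75.0% and 83.3%, and within 50 kb they were 61.3% and 70.2%, and 97.7% and 98.1%. In each of these settings the median scores and the shares with a neighbour stayed higher with a factor than without. The widest decile of all DNaseI regions, which starts at 854 bp, had 67.9% without a factor, against 26.5% at 3000 bp or more. With a minimum of 1500 bp, chosen after seeing the data, HEB-alone regions exceeded factor-free ones by 22.9 points for a factor region within 10 kb, and TCF1-alone regions by 4.40 points (-1.76 to 9.37) for a DNaseI region. A gap of up to 500 bp, the factor's centre as overlap rule, and autosomes alone moved none of these values beyond its counting interval.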

Other observations

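Of all wide regions 63.8% carried neither factor, and on chromosome 11 this was 68.6% (282 of 411). Unbroken runs are given as positions beside these shares, and their length was not tested. Listing only the DNaseI regions of 1000 bp or more in order, the longest unbroken run without a factor was 18 regions over 4.35 Mb of chromosome 11 (102170046 to 106520252), a stretch with 18 HEB or TCF1 regions outside them. A run of 17 on the same chromosome (68245860 to 69233349) took 0.988 Mb and had 4 factor regions in it. Runs of 13 lay on chromosomes 5, 7 and 9. Only 110 pairs of wide factor-free regions had no other DNaseI region between them, with a median gap of 1447 bp, and 43 of these gaps were under 1 kb.

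In the flanks of wide factor-free regions, 14 TCF1 regions lay at gaps under 500 bp and 47 at 500 to 1000 bp, or 6.84 and 23.0 per Mb of flank. For HEB these numbers were 13 and 26, or 6.35 and 12.7 per Mb. Around wide regions with a factor, TCF1 density was 8.63 and 19.0 per Mb in the same bins, and HEB density 8.63 and 15.5. Around factor-free regions under 1000 bp, TCF1 had 8.75 and 16.3 per Mb and HEB 5.23 and 10.3. The lower density in the first bin was thus not particular to the wide factor-free regions. The smallest gap between DNaseI regions was 199 bp, and its part in the first bin was not tested. The counts are small and the difference between the bins was not tested.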
